A study of Mus musculus with 6 samples.

Results

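The Cdx genes and the factors of the primitive streak were followed from embryonic stem cells into neural progenitors: Cdx1, Cdx2, Cdx4, Eomes, Evx1, Mixl1, Gsc, Tbx6, Mesp1 and Nkx1-2. All 10 listed genes were on the array, read by 14 of its 55681 probes, and they are 10 of the 21893 genes tested. Members were taken by gene symbol through the platform annotation, a rule that uses no measured value. The list of genes itself, however, was drawn up with earlier results of these data known. 7 genes had 1 probe and 3 genes (Eomes, Tbx6 and Nkx1-2) had several.

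NPC were mouse 46c cells, a single ES line of strain 129/Ola with GFP at the neural gene Sox1, differentiated for 5 days with the supplements NB27 and Neuro2 and then sorted by FACS on GFP. ESC were the same line in the undifferentiated state, with the same reporter; no sort is given for them. Whether GFP-positive or GFP-negative cells were collected is not in the labels. Each group had 3 biological replicates by the design text, 1 array each, and values are log2 signals that the authors had quantile normalised.

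The primitive streak is the site where epiblast cells lose their epithelial form and become mesoderm and endoderm under Nodal, Wnt, BMP and FGF signals. Eomes, Mixl1, Gsc, Mesp1 and Tbx6 are switched on along that path, and the caudal-type Cdx factors then set posterior identity by acting on trunk Hox genes. Neural differentiation in culture takes the other route, since neural fate arises where streak signals are weak. Several members have second roles: Cdx2 and Eomes in trophectoderm, Evx1 in ventral interneurons of the spinal cord, and Nkx1-2 in the caudal epiblast and the early posterior neural tube.

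In NPC, 4 of the 10 genes fell (Cdx1, Cdx2, Eomes and Mesp1), 2 rose (Evx1 and Nkx1-2) and 4 did not pass the test (Cdx4, Mixl1, Gsc and Tbx6). Evx1 differed by 2.82 ± 0.48 on the log2 scale and Cdx2 by -3.99 ± 0.19 (NPC minus ESC ± SE, n = 3 arrays each). Nkx1-2 differed by 4.22 ± 0.51 at the probe that stood for the gene. Its other probes gave -0.36 and -1.12 without a call, and the mean of its probes rose by 0.91. Over all 21893 genes, limma called 20.6% at an adjusted p under 0.05, of which 11.1% were higher and 9.54% lower in NPC. When replicate number was added as a block, 35.7% of all genes were called (18.9% higher and 16.7% lower), and the members' counts stayed at 2 and 4. The median log2 difference of the members was -0.10, against 0.01 over all genes, and the median of its absolute size was 2.38, against 0.52. Because the genes were chosen with earlier results known, these shares and medians describe the list only. The streak and posterior genes thus changed in both directions, and no single trend covered them.

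Signals of the members were mostly low on the array's scale. Of 84 member values, 58 were under 6, and 10 of 42 in NPC and 4 of 42 in ESC lay within 0.5 of the lowest value of the table, 1.03. The array median was 5.32 on every array. No detection call comes with these values, so the members' changes were also computed with values under 6 set to 6, and for other genes that value is given where it ends a call or is over 1.5 times smaller. All values of Cdx4, Mixl1 and Gsc were under 6, so that the floor left a difference of 0 for each. With that floor, 1 member rose and 2 fell, next to 12.9% of all genes called (6.97% higher and 5.92% lower). Over single probes, 2 of the 14 rose and 5 fell, next to 11.5% of all 55681 probes (6.08% higher and 5.43% lower). A bulk array cannot tell fewer expressing cells from less RNA per cell.

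**Figure D1:**
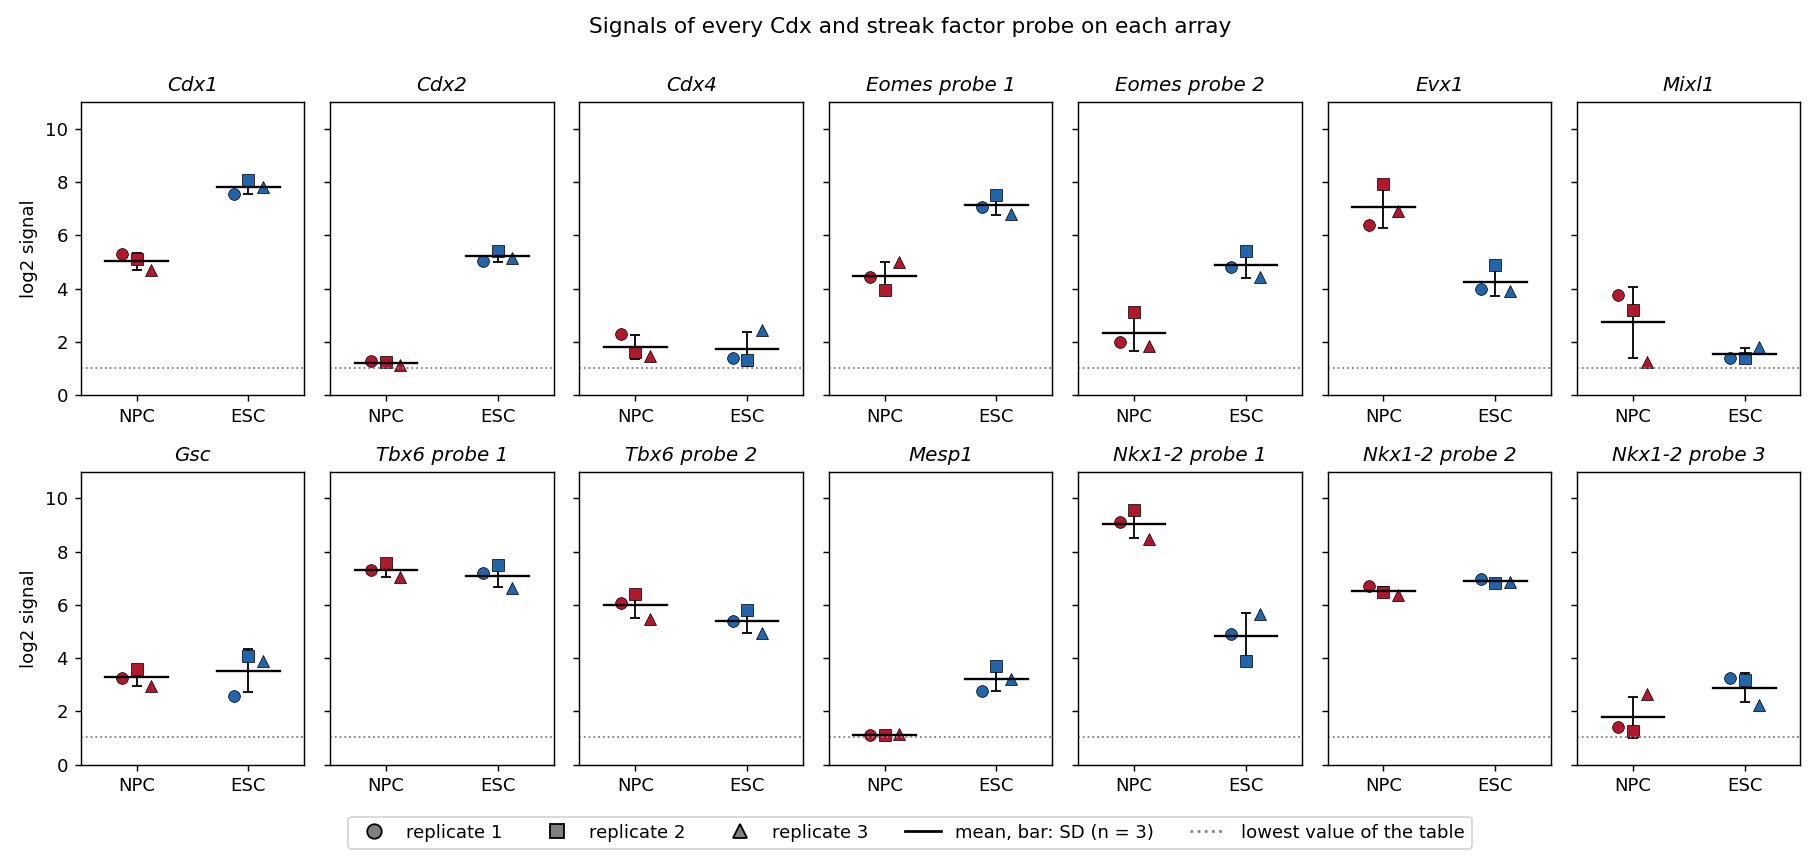
Log2 signal (y axis) of all 14 probes in NPC and ESC, with a point per array (shape marks the replicate number), the mean as a line and the SD as a bar (n = 3); the dotted line is the lowest value of the table, 1.03. Cdx1, Cdx2, Eomes and Mesp1 lie lower in NPC with no overlap, Evx1 and Nkx1-2 probe 1 lie higher, and Cdx2 and Mesp1 in NPC sit on the bottom of the scale.

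RefSeq promoter windows (build GRCm38.p6) were matched for 8 of the 10 members, all but Cdx1 and Mixl1. These windows, from 250 bases before to 50 bases after the gene start, were searched on both strands for 4 motifs: CTTTGAT (TCF/LEF, the Wnt effectors), AATCCACA (Foxh1, a Nodal effector), TTTATNG (Cdx factors) and GGTGTNA (T-box factors). Mesp1 held CTTTGAT from base -31 to -25 (the start base is 0) and the T-box letters, on the other strand, from base 5 to 11. Evx1 held the Cdx letters on the other strand from base -230 to -224, and Tbx6 held them likewise from -44 to -38. No matches overlapped. Of all 32851 promoters in the table, 3.73% held CTTTGAT, 0.855% AATCCACA, 10.9% TTTATNG and 10.2% GGTGTNA, so a match in 1 or 2 of 8 windows describes letters only. The windows of Mesp1, which fell, and Evx1, which rose, are shown since these are the called members with a match; each runs 5′ to 3′ from 250 bases before the start through the first 20 bases of the gene, with the matches in capitals.
Mesp1, chr7:79793571-79793840, minus strand: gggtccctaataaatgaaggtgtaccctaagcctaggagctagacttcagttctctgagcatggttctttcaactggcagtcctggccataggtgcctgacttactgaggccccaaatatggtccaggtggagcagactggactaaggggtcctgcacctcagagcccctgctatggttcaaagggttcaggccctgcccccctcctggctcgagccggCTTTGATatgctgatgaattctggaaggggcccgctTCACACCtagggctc
Evx1, chr6:52313248-52313517, plus strand: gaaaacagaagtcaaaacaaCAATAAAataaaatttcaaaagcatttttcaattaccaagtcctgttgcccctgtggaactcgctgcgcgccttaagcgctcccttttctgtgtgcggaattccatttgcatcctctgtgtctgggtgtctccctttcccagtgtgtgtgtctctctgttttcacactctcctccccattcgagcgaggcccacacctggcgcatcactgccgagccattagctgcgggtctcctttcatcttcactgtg

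Among the Cdx genes, Cdx1 and Cdx2 fell and Cdx4 did not pass. Cdx1, a homeobox gene that answers to Wnt and retinoic acid in the streak and tail, read 5.30, 5.11 and 4.68 in NPC (replicates 1 to 3), against 7.54, 8.06 and 7.81 in ESC. All NPC values lay below all ESC values, a difference of -2.77 ± 0.25 (limma adjusted p = 0.00101), or 6.84-fold lower in NPC. The groups did not overlap for 6 of the 10 members, and this was common on these arrays: it held for 37.0% of all genes, with every NPC value below every ESC value for 17.4% and above for 19.6%. With values under 6 set to 6 the difference of Cdx1 was -1.80 and still passed (adjusted p = 0.00426).

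Cdx2, which specifies trophectoderm before it acts in the posterior axis and the gut, read 1.29, 1.23 and 1.13 in NPC, against 5.05, 5.42 and 5.14 in ESC. The difference was -3.99 ± 0.19 (adjusted p = 0.000132), the largest fall among the members, and the groups did not overlap. All 6 values were under 6, so with that floor the difference was 0. The NPC values were at the bottom of the scale, so the size of this fall rests on dim signals. Cdx4, an X-linked member that acts with Cdx1 and Cdx2 in the tail bud, read 2.30, 1.60 and 1.47 in NPC, against 1.39, 1.32 and 2.46 in ESC. The groups overlapped, with a difference of 0.06 ± 0.40 (adjusted p = 0.944, 95% confidence interval -0.93 to 1.05). A difference of up to about 2-fold in either direction lies within this interval.

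Of the T-box genes, Eomes fell and Tbx6 did not pass. Eomes, needed in the streak for definitive endoderm and for the exit of mesoderm, read 4.44, 3.93 and 4.99 in NPC by its brighter probe, against 7.06, 7.50 and 6.80 in ESC. The groups did not overlap and the difference was -2.67 ± 0.34 (adjusted p = 0.00347). Its other probe read 2.01, 3.11 and 1.86 in NPC, against 4.79, 5.40 and 4.44 in ESC. That probe gave -2.55 ± 0.44 (adjusted p = 0.0186 over all 55681 probes), so the probes of Eomes differed in the same direction and by a like amount. With values under 6 set to 6 the brighter probe gave -1.12 (adjusted p = 0.0334 over genes, 0.0605 over all probes) and the other 0.

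Tbx6, which directs paraxial mesoderm and holds back Sox2 there, read 7.33, 7.56 and 7.04 in NPC by its brighter probe, against 7.20, 7.49 and 6.62 in ESC. The groups overlapped and the difference of 0.21 ± 0.29 did not pass (adjusted p = 0.711, 95% confidence interval -0.51 to 0.92). The other probe read 6.07, 6.41 and 5.48 in NPC, against 5.38, 5.82 and 4.95 in ESC. It differed by 0.60 ± 0.35 (adjusted p = 0.411 over all probes). Within replicate numbers, NPC exceeded ESC by 0.13, 0.07 and 0.42 at the brighter probe and by 0.68, 0.59 and 0.53 at the other, so every pair had the same sign; with the block the adjusted p over all probes was 0.415 at the brighter probe and 0.0592 at the other, and with values under 6 set to 6 they differed by 0.21 and 0.16.

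The streak homeobox genes differed from each other. Evx1, an even-skipped relative of the posterior streak that later marks V0 interneurons, read 6.38, 7.93 and 6.92 in NPC, against 3.99, 4.88 and 3.89 in ESC. All NPC values lay above all ESC values, a rise of 2.82 ± 0.48 (adjusted p = 0.0102), or 7.07-fold. Without ESC replicate 1 the difference was 2.69 and just missed the threshold (adjusted p = 0.0507), and with values under 6 set to 6 it was 1.08 and did not pass (adjusted p = 0.262). With the replicate block the adjusted p was 0.00185, as the differences within numbers were 2.39, 3.05 and 3.03. Dbx1, the homeobox gene of the progenitors that give rise to V0 interneurons, rose by 10.40 ± 0.17 (adjusted p = 4.1e-05), or 7.28 with values under 6 set to 6. Evx2, a relative of Evx1, went the other way (-0.96 ± 0.17, limma adjusted p = 0.0112), with a call in 5 of 6 fits without an array. The other probe of Evx2 read -0.06 and was not called.

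Mixl1, a paired-like homeobox gene of nascent mesendoderm, read 3.77, 3.21 and 1.23 in NPC, against 1.38, 1.40 and 1.80 in ESC. NPC replicates 1 and 2 were above every ESC array and NPC replicate 3 was below all of them. The difference of 1.21 ± 0.67 did not pass (adjusted p = 0.293, 95% confidence interval -0.43 to 2.84). NPC replicate 3 decides this: without it the difference was 1.96 and passed (adjusted p = 0.00966), although all values of the gene were under 4. Gsc, a homeobox gene of the organizer at the anterior end of the streak, read 3.26, 3.60 and 2.97 in NPC, against 2.60, 4.09 and 3.91 in ESC. Its groups overlapped and the difference was -0.25 ± 0.44 (adjusted p = 0.775, 95% confidence interval -1.35 to 0.84).

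Mesp1, the bHLH factor of the earliest cardiac and cranial mesoderm, read 1.13, 1.11 and 1.16 in NPC, against 2.76, 3.69 and 3.23 in ESC. No values overlapped and the difference was -2.09 ± 0.27 (adjusted p = 0.00371). Every value was under 4 and the NPC values were at the bottom of the scale, so a floor at 6 left a difference of 0. Its relative Mesp2, a factor of somite boundaries, differed by -1.30 (adjusted p = 0.0339), with a call in 1 of 6 fits without an array, and by -0.52 with values under 6 set to 6 (adjusted p = 0.0102).

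Nkx1-2, a homeobox gene of the caudal epiblast and preneural tube, had the largest rise of the members by 1 of its 3 probes only. That probe read 9.11, 9.55 and 8.49 in NPC, against 4.92, 3.91 and 5.65 in ESC, a rise of 4.22 ± 0.51 (adjusted p = 0.00286), or 18.6-fold, with no overlap. It passed with values under 6 set to 6 (3.05, adjusted p = 0.00704) and without any 1 of the 6 arrays (3.76 to 4.63). The second probe read 6.70, 6.49 and 6.39 in NPC, against 6.96, 6.83 and 6.86 in ESC, so that NPC lay slightly below ESC on all arrays (-0.36 ± 0.18, adjusted p = 0.323 over all probes). At the third probe the values were 1.40, 1.27 and 2.67 in NPC, against 3.27, 3.17 and 2.26 in ESC (-1.12 ± 0.49, adjusted p = 0.26), with overlap. The mean of the 3 probes rose by 0.91 (adjusted p = 0.0205). The first probe stood for the gene by its mean over all 6 arrays. It was the brightest in NPC (9.05 on average), while in ESC the second was brighter (6.88 against 4.83), so that choice rests on the NPC signal. The probes are annotated to the same transcript, and which of them measures Nkx1-2 was not tested.

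**Figure D2:**
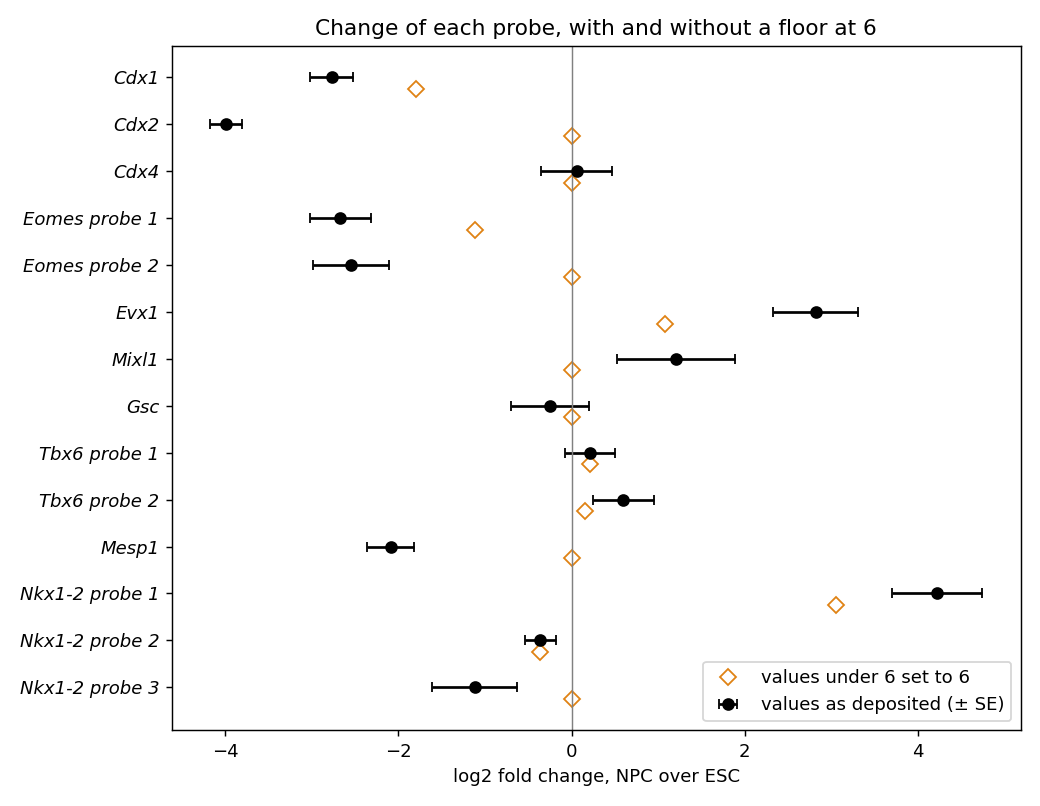
Log2 fold change of NPC over ESC (x axis) for each of the 14 probes, as black points with the SE from the fit on all probes, and as open diamonds after values under 6 were set to 6. Cdx2, Mesp1 and Eomes probe 2 go to 0 with the floor, Nkx1-2 probe 1 keeps 3.05, and the other probes of Nkx1-2 lie on the opposite side of 0.

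Since the groups of the 6 called genes did not overlap, any pairing of their arrays gives 1 sign, and the differences by replicate number are given for their sizes. NPC minus ESC was -2.24, -2.95 and -3.13 for Cdx1 in pairs 1, 2 and 3, and -3.77, -4.19 and -4.01 for Cdx2. For Eomes it was -2.63, -3.56 and -1.81, for Mesp1 -1.63, -2.58 and -2.07, and for Nkx1-2 4.18, 5.64 and 2.84. Mixl1 changed sign between pairs (2.38, 1.81 and -0.57), as did Cdx4 (0.91, 0.27 and -0.99) and Gsc (0.66, -0.49 and -0.94). Within NPC, replicate 3 gave the lowest value for 7 of the 10 genes, and within ESC, replicate 2 gave the highest for 7 of 10. How often other genes show this order was not counted, so it is not shown to be particular to the members. Over all genes, the deviations of these arrays from their group means correlated with r = -0.76. The part of these arrays in the results was not tested beyond leaving each out.

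**Figure D3:**
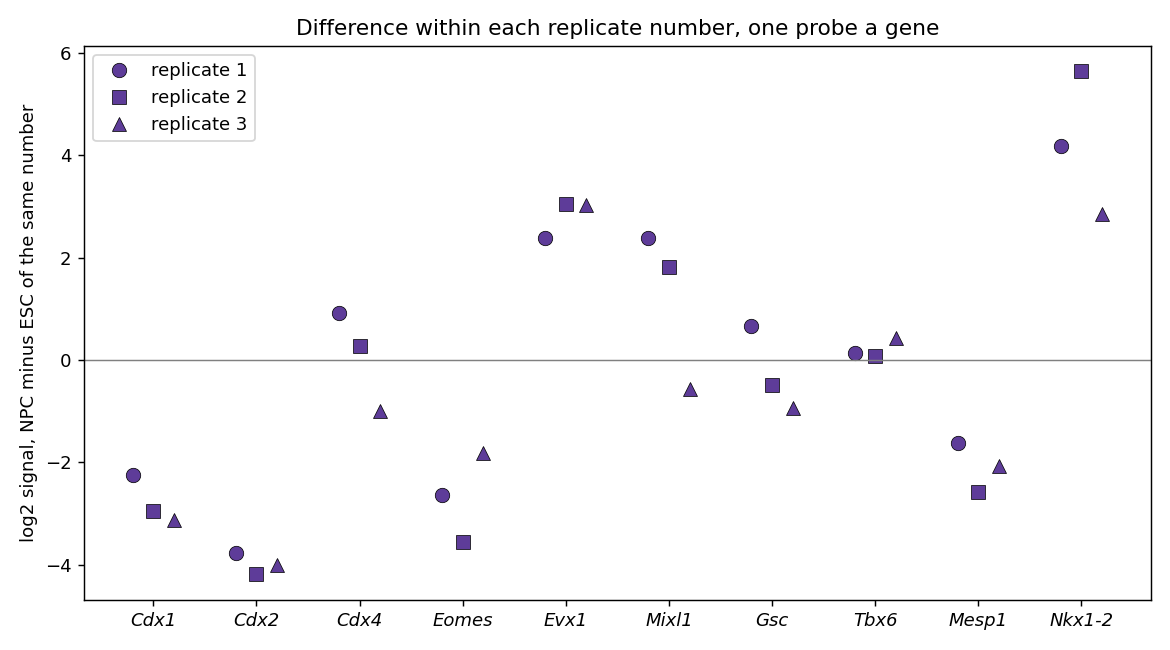
Difference of log2 signal between the NPC and the ESC array of the same replicate number (y axis) for each gene, by the probe used for the gene; shapes mark the number. The 3 points of Cdx1, Cdx2, Eomes and Mesp1 are all below 0, those of Evx1, Nkx1-2 and Tbx6 all above 0, and those of Cdx4, Mixl1 and Gsc on both sides.

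Of 23 measured signals, antagonists, coreceptors and effectors of the Nodal, Wnt, BMP and FGF pathways, 10 fell, 4 rose and 9 did not pass, with a median of -0.66. Among the 10 that fell were Nodal itself (-4.28 ± 0.22) and Foxh1, a Nodal effector (-3.03 ± 0.31). Lefty1 (-5.32 ± 0.65) and Lefty2 (-3.93 ± 0.41), which are antagonists of Nodal, fell too. Tdgf1, a Nodal coreceptor, is among the 9 that did not pass by its brightest probe only (-1.31 ± 0.48, adjusted p = 0.126). Its 2 other probes gave larger falls and both were called, so the probes of Tdgf1 disagree on the call. Fgf4, an FGF of the inner cell mass, averaged 4.46 ± 0.32 in NPC and 12.80 ± 0.04 in ESC (SD, n = 3 each), a fall of 8.34. Gdf3, a Nodal-related ligand, averaged 5.90 ± 0.21 in NPC and 12.93 ± 0.27 in ESC, a change of -7.02. Its other probe read a smaller change, -2.09 ± 0.18, and was called too. Bmp4, which induces posterior streak and mesoderm, averaged 7.46 ± 0.01 in NPC and 13.55 ± 0.46 in ESC; the second probe read a change of -1.85 with no call. Fgf4 stands in the list of ES cell markers too, of which 15 of 16 fell. Nodal (11.85), Lefty1 (12.10) and Foxh1 (10.34) were also bright in ESC on average. How far the falls in this list are those of genes of undifferentiated ES cells was not tested. The 4 that rose were Sp8, Wnt3, Wnt5b and Axin2. Sp8, a zinc finger factor downstream of Wnt and FGF, rose by 5.79 ± 0.38 at its brighter probe, while the second read 0.62 and was not called. Wnt3 (1.93 ± 0.36) and Wnt5b (1.93 ± 0.38), both ligands, and Axin2 (1.88 ± 0.45), a Wnt target and inhibitor, were called in 4, 3 and 1 of 6 fits without an array. With values under 6 set to 6, Wnt3 differed by 0.46 (adjusted p = 0.378), Wnt5b missed the threshold (adjusted p = 0.0522) and Axin2 gave 1.23 (adjusted p = 0.0492), while its other probe read 0.06, so that 2 of the list rose and 9 fell. Leaving out single arrays moved the count that rose between 1 and 4.

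The other transcription factors of streak, mesoderm and node moved both ways: 7 of 28 rose and 8 fell, with a median of 0.02. Foxa2, a factor of node, notochord, endoderm and floor plate, averaged 10.23 ± 0.50 in NPC and 4.54 ± 0.42 in ESC, and its other probe rose as well (6.97). Foxc1, of paraxial mesoderm, averaged 6.66 ± 0.34 in NPC and 1.33 ± 0.05 in ESC, but with values under 6 set to 6 its change was 0.66 and did not pass (adjusted p = 0.117). Tcf15, a bHLH factor of somites that ES cells also express, averaged 7.49 ± 0.19 in NPC and 13.08 ± 0.27 in ESC. With the replicate block 8 rose and 12 fell, and with the floor 4 rose and 5 fell.

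Of 17 surface and secreted genes listed for mesoderm, 9 rose and 2 fell, with a median of 2.18, against 0.01 for all genes. The 2 that fell, Epcam and Cdh1, are epithelial genes, and no other gene of the list was called lower. The Wnt antagonist gene Frzb averaged 9.28 ± 0.54 in NPC and 1.69 ± 0.18 in ESC, a rise of 7.60, or 3.28 with values under 6 set to 6. Cdh11, a mesenchymal cadherin, averaged 9.04 ± 1.06 in NPC and 1.55 ± 0.33 in ESC; the rise of 7.49 was 3.04 with that floor (adjusted p = 0.0432), and its other probe gave 0.58 without a call. Epcam, an epithelial adhesion gene that cells lose on leaving the epiblast, averaged 4.85 ± 1.01 in NPC and 11.63 ± 1.08 in ESC. The other gene that fell was Cdh1, an epithelial cadherin (-6.19 ± 0.21). Kdr (-0.39 ± 0.23) and Aplnr (-0.38 ± 0.21) did not pass, though the other probe of Kdr read -1.73 and was called. Pdgfra rose by 2.18 ± 0.27, but with values under 6 set to 6 its difference was 0. Several genes of this list, Cdh2 among them, are also expressed in neural progenitors.

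Of the trunk Hox genes, the group that Cdx factors act on, 3 of 15 in paralog groups 5 to 9 rose (20%) and 1 fell (6.67%), next to 11.1% and 9.54% of all genes, with a median of 0.19. Hoxb8 read 9.72, 10.12 and 8.74 in NPC, against 1.37, 1.56 and 1.31 in ESC, a rise of 8.11 ± 0.38, which was 3.53 with values under 6 set to 6 (adjusted p = 0.0103). Hoxb7 averaged 7.14 ± 0.46 in NPC and 3.78 ± 0.08 in ESC, which was a difference of 1.14 and no call with that floor (adjusted p = 0.0632). Hoxa5 (1.73 ± 0.36) and Hoxb9 (-0.89 ± 0.22) passed by signals under 6, so that the floor left 0, and each lost its call in 5 of 6 fits that left out an array. The rise of Hoxb8 was read on the same arrays on which Cdx1 and Cdx2 were lower and Cdx4 did not pass. A relation between these genes was not tested.

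Tail bud genes, the company that Nkx1-2 and Evx1 keep in the embryo, were split as well, since 5 of 23 rose and 4 fell, with a median of -0.13. Sox3, a SoxB1 factor of epiblast and neural plate, averaged 14.11 ± 0.41 in NPC and 9.38 ± 0.85 in ESC. Sp5, a Wnt target in the streak and tail, averaged 4.64 ± 0.73 in NPC and 8.90 ± 0.49 in ESC. Sp8 has been given above. Relatives of the members, in the same families or more distant (Gsx1, Gsx2 and Pdx1), changed in 8 of 19 cases, 5 higher and 3 lower. Gsx1, a homeobox gene of intermediate neural tube outside the Cdx family, rose by 3.19 ± 0.48. Tbx3, a T-box gene that ES cells express, fell by 2.84 ± 0.34. Tbx2 differed by 2.15 ± 0.54 (adjusted p = 0.0404) with a call in 1 of 6 fits without an array, and 0 with the floor at 6. With values under 6 set to 6, 1 relative rose, which was Gsx1, and 3 fell.

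**Figure D4:**
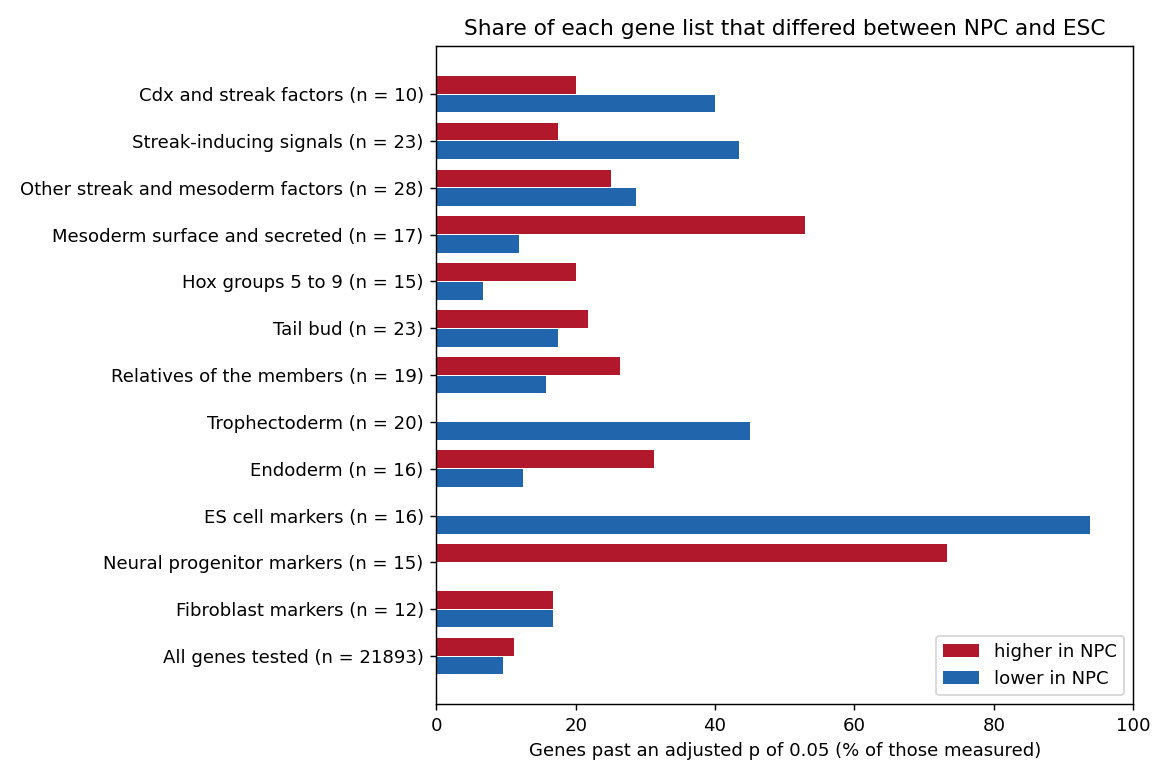
Share of measured genes past an adjusted p of 0.05 (x axis, %) in each list, higher (red) and lower (blue) in NPC; n is the number of genes measured. Of the members 20% rose and 40% fell, next to 11.1% and 9.54% of all 21893 genes. Members and lists were picked with earlier results known, so the shares describe them only.

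Markers of other cell types that the cultures could hold were read beside the members. Trophectoderm genes, which share Cdx2 and Eomes with the streak, fell in 9 of 20 cases and rose in 0 by limma (3 at an unadjusted p under 0.05, and 3 with the replicate block). Their median signal was 5.86 to 6.26 on the NPC arrays and 7.00 to 7.54 on the ESC arrays, so it moved the same way as Cdx2 and Eomes. Tfap2c (5.47 ± 0.08 in NPC, 11.27 ± 0.40 in ESC), Esrrb (a change of -6.16, but -0.03 by its other probe) and Plet1 (4.77 ± 0.21 in NPC, 9.97 ± 0.28 in ESC) changed most, and Tfap2c and Esrrb are ES cell genes too. Elf5, a defining factor of trophoblast stem cells, read 3.19 in NPC and 2.83 in ESC on average and did not pass (adjusted p = 0.535).

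Endoderm genes rose in 5 of 16 cases and fell in 2, with medians of 4.57 to 5.19 on NPC arrays and 4.40 to 4.82 on ESC arrays. Cxcr4, a chemokine receptor, rose by 6.31 ± 0.44 (2.40 with values under 6 set to 6) and Hhex fell by 2.91 ± 0.28, while Sox17, which defines endoderm, differed by -0.58 without passing (adjusted p = 0.128). Fibroblast markers rose in 2 of 12 cases (Col1a1 and Col1a2; 5 with the replicate block) and fell in 2, Thy1 among them (-3.06 ± 0.52). Without single arrays 1 to 2 of the fibroblast markers rose and 0 to 1 fell, and with values under 6 set to 6 neither Col1a1 (adjusted p = 0.0667) nor Thy1 (adjusted p = 0.071) passed. The part of these cell types in the members' changes was not tested. As a check of the labels, 15 of 16 ES cell markers fell, led by Zfp42, Tcl1 and Fgf4, and 11 of 15 neural progenitor markers rose, led by Fabp7, Dbx1 and Irx3. Nanog was the ES cell marker that did not pass (7.52 in NPC and 6.93 in ESC on average). It had no other probe, and its ESC signal was far below that of Pou5f1 (14.42). Whether this probe reads the Nanog transcript was not tested, so an unchanged level cannot be read from it. Pax6, Pou3f3, Msi1 and Zic1 did not pass either, though the other probes of Msi1 (3.99) and Zic1 (4.52) were called. Pou5f1 averaged 6.67 ± 0.27 in NPC and 14.42 ± 0.52 in ESC, and Sox1, on which the cells were sorted, 10.83 ± 0.54 in NPC and 7.83 ± 0.53 in ESC. The second probe of Sox1 differed by 0.91 ± 0.68 and was not called.

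For each called member the 3 genes closest over the 6 arrays were found by Euclidean distance after each gene was centred on its own mean, as a description. Cdx1 was closest to Cebpe, Igsf23 and Terb2 (0.34 to 0.36), and Cdx2 to Xaf1, 1190005I06Rik and Tmem51 (0.31 to 0.35). Eomes was closest to Mslnl, Adipoq and Syne1 (0.53 to 0.55). Mesp1 was closest to Efhc2, Zscan4c and Dedd2 (0.21 to 0.32). For Evx1 they were Foxf1, Ppp1r3g and Foxa1 (0.58 to 0.64), and for Nkx1-2 they were Vipr2, Camk1g and Pcdhb16 (0.83 to 0.98). No 2 of these members shared a nearest gene.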

How the data were processed

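Per the labels' protocols, total RNA of 3 NPC and 3 ESC samples was amplified and coupled to Cy3, for 1-colour Agilent arrays. The authors deposited log2 values for 55681 probes without missing values; the base, 2, was inferred from values between 1.03 and 16.18. The sorted values of all columns were identical (largest difference 0), so the deposited values were quantile normalised, and a shift common to most genes would not show. The submitters' processing notes name limma without a version; background correction and detection calls are not given in the sources. The number of arrays limits the precision.

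The platform annotation named 30626 probes with 1 symbol, and 25055 are unnamed here. Entrez IDs of 30332 matched the RefSeq gene table (GRCm38.p6), used for names. For 6807 genes with several probes, the probe of highest mean over all arrays stood for the gene. The NPC and ESC arrays were fitted with limma 3.58.1 under R 4.3.3 (lmFit, eBayes, two-sided, no covariates), adjusted by Benjamini-Hochberg over 21893 genes; single probes were fitted over all 55681. The fit was checked on simulated data. Alternatives were the replicate block, a floor and a filter at 6, the mean of all probes, a trended robust prior, array weights and leaving out each array.

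Named are all members, Sox1, Pou5f1, and in each list the 3 largest called changes and the largest that opposes the majority; other list genes were chosen after their values were seen. The members and lists were chosen with earlier results of these data known. Deviations from group means of same-numbered arrays correlated over genes with r = 0.19, 0.72 and 0.77, while NPC replicate 1 was closer to ESC replicate 2 (0.40). Whether the numbers in the titles pair the arrays was thus not settled, and the replicate block was used as an alternative only. No slide or scan batch could be tested from these values.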

Additional observations from a re-analysis of the deposited data

How the results depend on the processing

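With the replicate block 4147 genes were higher and 3660 lower in NPC (2423 and 2089 without it), and the block changed no call among the members. With values under 6 set to 6 the counts were 1527 and 1297, and the members' 1 and 2, as a floor removes differences among dim signals. When genes under 6 in both groups were left out, 2 members fell, since Cdx2 and Mesp1 were not tested. Gene-by-gene array weights, used because the default estimate did not converge, gave 4371 higher and 3819 lower genes and 3 members that rose, with Mixl1 called at 1.88. Leaving out single arrays gave 1475 to 2644 higher and 1289 to 1923 lower genes, with the fewest without ESC replicate 1; without NPC replicate 1 there were 1555 higher. The members that rose numbered 1 to 3, with 1 without ESC replicate 1 and 3 without NPC replicate 3, and 4 fell each time. Signs turned only for members that had not passed. Cdx4 ranged from -0.19 to 0.43 without single arrays, Gsc from -0.72 to 0.02, and Tbx6 from -0.04 to 0.40. Gsc was 0.53 with array weights. The trended robust prior and the mean of all probes changed no call among the members. Depth on an array is signal over background, which is unknown here and limits every statement on Cdx2, Cdx4, Mixl1, Gsc and Mesp1.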
